A study of Mus musculus with 12 samples.

Results

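Transcripts of 4 MC38/hPD-L1 tumors from mice given an antibody to human PD-L1 (durvalumab) were compared with those of 4 MC38/hPD-L1 tumors from mice given an Fc control protein, gene by gene. The 8 tumors were all those whose labels gave either treatment, of 12 in the series. The other 4 came from mice given ALPN-202, a CD80 variant fused to Fc. They entered the choice of genes tested, the normalization and the shared estimate of spread, but not the contrast between the groups. MC38 is a mouse colon carcinoma line; here the cells had been virally transduced, selected with puromycin for stable expression of human PD-L1 and grown as tumors in C57BL6 mice, which kept their own immune system and their own PD-1, PD-L1, CD28 and CTLA-4. The study's methods give female C57BL/6NJ mice, 8 to 10 weeks old at the start, implanted under the skin of the flank. Each mouse received 1 intraperitoneal injection on day 8, 100 µg of anti-PD-L1 or 75 µg of Fc control, and the tumor was taken 72 h later. All 3 groups carried human PD-L1 on the tumor cells, and the antibody was raised against the human protein, so mouse PD-L1 on host cells was not its intended target. The control received less protein by mass, and it was an Fc protein rather than an antibody. The tumors were labelled as separate replicates, 4 to a group.

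PD-1 is an inhibitory receptor of activated T cells, and PD-L1, which tumor cells and myeloid cells display, is one of its ligands. Binding recruits the phosphatase SHP-2 to the tail of PD-1 and dampens signals from the T cell receptor and from CD28. T cells released from this brake can divide, kill with granzymes and perforin, and secrete interferon gamma, which induces chemokines, guanylate-binding proteins, antigen presentation and PD-L1 itself in neighbouring cells. The comparison addresses which transcripts of a whole tumor differed 72 h after a single dose of PD-L1 antibody. In whole-tumor RNA, fewer cells of a type and less RNA per cell cannot be told apart.

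No gene passed the test between the groups. Of 14142 genes tested with edgeR's quasi-likelihood test, 0 (0.0%) had a Benjamini-Hochberg adjusted p under 0.05, and the smallest adjusted p from edgeR was 0.826. DESeq2, limma-voom with sample weights and limma on TPM, counts scaled by gene length and library, also called 0 genes. At an unadjusted edgeR p under 0.05, 203 genes (1.44%) were higher and 89 (0.629%) lower with anti-PD-L1. Together these were 292 genes, where about 707 would be called at that threshold if no gene differed. Every anti-PD-L1 tumor stood above every Fc control tumor in 155 genes (1.1%) and below in 217 (1.53%). The median log2 fold change over all genes, anti-PD-L1 over Fc control, was -0.03, and the median half-width of a gene's 95% confidence interval was 0.64 on the log2 scale. For 8328 genes (58.9%) the whole interval lay within 1 log2 unit of 0, so a larger change of these genes was outside the interval; for the remaining genes the 4 tumors per group gave wider bounds.

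**Figure D1:**
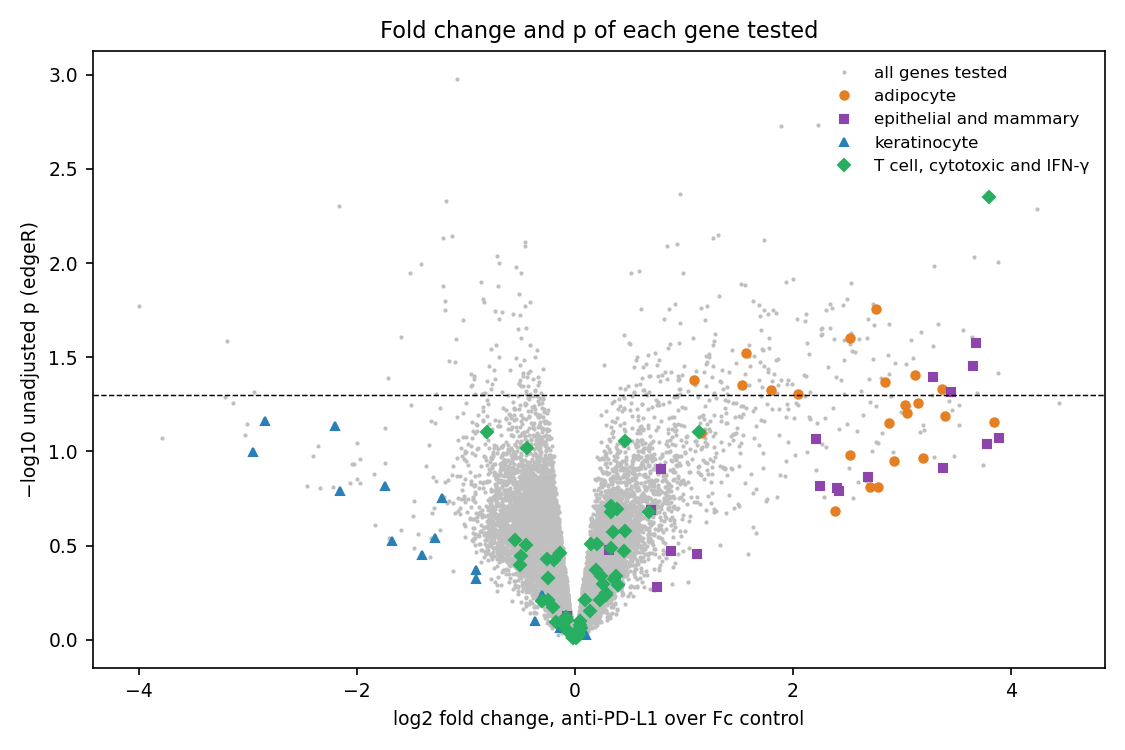
Log2 fold change (anti-PD-L1 over Fc control, x axis) and −log10 of the unadjusted edgeR p (y axis) of the 14142 genes tested, with members of fixed gene lists coloured. The dashed line marks an unadjusted threshold of 0.05. Adipocyte, epithelial and mammary genes lie to the right and keratinocyte genes to the left, while most T cell, cytotoxic and interferon gamma response genes lie nearer 0, with Ido1 (3.80), Ubash3a (1.14) and Cxcl11 (-0.80) farthest from it.

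Total counts were 6790794 to 10692817 per Fc control tumor and 8778710 to 10448187 per anti-PD-L1 tumor. Levels are given as counts scaled to an equal library total (CPM) after TMM normalization, always in the order of replicates 1 to 4, and a number shared by both groups links no tumors. The library of Fc control replicate 1 stood apart. Its short genes (longest transcript 1702 bases or less) had a median difference of 0.73 log2 units from the median of all 12 tumors of the series. Its long genes (4866 bases or more) had one of -0.80. All genes with ribosomal protein names took 3.56% of its counts, against 1.44% to 2.02% in the other 7 tumors. On the first principal component, which held 49.7% of the variance of the 8 tumors, this library (91.6) and anti-PD-L1 replicate 2 (-60.4) were the ends. The tumors had little of the epithelial identity that a colon carcinoma can show. Cdx2, an intestinal transcription factor, had 0 counts in each of the 8 tumors, and Krt8, Krt18 and Krt19, keratins of simple epithelium, were below 1 CPM in 5 of them. Vim, the mesenchymal filament vimentin, ran from 3530 to 4310 CPM in all 8. These colon genes were chosen after their values were seen.

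The PD-1 axis and its B7/CD28 relatives were close between the groups. Of 15 tested members of this list, 7 were positive and 8 negative, with a median log2 fold change of -0.01. Of the 15, 1 was lower at an unadjusted edgeR p under 0.05, against 0.629% of all genes tested. Cd274, which encodes mouse PD-L1, was at 125, 93.1, 67.5 and 95.8 CPM in Fc control tumors and at 142, 104, 104 and 84.4 CPM in anti-PD-L1 tumors. The groups overlapped, with a log2 fold change of 0.19 (95% interval -0.32 to 0.70). The gene for PD-1 itself, Pdcd1, was at 12.4, 8.67, 3.78 and 6.55 CPM in controls and at 6.56, 11.4, 5.69 and 1.96 CPM with anti-PD-L1. Its log2 fold change was -0.28 (95% interval -1.26 to 0.71), with the highest tumor in the control group and the lowest in the treated group. The human PD-L1 carried by the tumor cells is not a gene of the mouse table and was not analysed here.

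Cd80 (chromosome 16, 38459013 to 38495821, plus strand, NCBIM37) was the 1 member of 15 whose groups did not overlap. Of all genes tested, 1.53% were below in this way. Cd80 encodes a B7 ligand of CD28 and CTLA-4 on antigen-presenting cells, which also binds PD-L1. Its level was 9.02, 6.70, 6.36 and 7.16 CPM in controls and 6.23, 5.82, 4.94 and 3.47 CPM with anti-PD-L1, a log2 fold change of -0.51 (SE 0.23, adjusted p = 0.826). The lowest control, at 6.36 CPM, was close to the highest treated tumor, at 6.23 CPM. On the TPM scale the groups overlapped, with Fc control replicate 1 at 5.98 and anti-PD-L1 replicate 1 at 6.18 TPM. Cd86, the other B7 ligand of CD28, overlapped at 75.9, 38.5, 25.4 and 28.7 CPM against 39.8, 35.2, 34.3 and 23.2 CPM (log2 fold change -0.34, SE 0.37), and its sign turned without Fc control replicate 1, at 0.10. Cd28 was at 0.63 (SE 0.44) and Ctla4 at -0.11 (SE 0.39). Pdcd1lg2, the second PD-1 ligand, was at 0.07 (SE 0.50), and Icos, an inducible relative of CD28, at 0.11 (SE 0.57).

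T cell and killing genes differed more among tumors of a group than between groups. Of 19 tested genes of the T cell receptor and lineage list, 13 were positive and 6 negative (median 0.14, with -0.15 without anti-PD-L1 replicate 2 and 0.36 without anti-PD-L1 replicate 4), and 0 had an unadjusted edgeR p under 0.05. Cd8a, the CD8 alpha chain, was at 10.9, 15.4, 5.50 and 11.1 CPM in controls and 14.9, 14.0, 9.42 and 4.09 CPM with anti-PD-L1. The lowest tumor was a treated one, the ranges overlapped almost wholly, and the log2 fold change was -0.01 (95% interval -0.92 to 0.89). Cd3d, a chain of the CD3 complex, was at 10.9, 7.05, 2.23 and 4.94 CPM against 5.79, 8.22, 4.85 and 1.24 CPM (log2 fold change -0.30, 95% interval -1.60 to 0.99). Ubash3a, a regulator of T cell receptor signals, had the smallest p of this list, at 0.167, 0.924, 0.516 and 0.807 CPM against 1.97, 1.6, 1.49 and 0.533 CPM (log2 fold change 1.14, SE 0.59). Anti-PD-L1 replicate 4 fell inside the control range for it.

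Of 13 tested cytotoxic effectors, 4 were positive and 9 negative, with a median of -0.25. This median was 0.11 without Fc control replicate 1, 0.10 without anti-PD-L1 replicate 4 and -0.40 without Fc control replicate 3. Gzmb, granzyme B, was at 41.8, 30.0, 15 and 23.9 CPM in controls and at 37.1, 35.1, 22.8 and 16.1 CPM with anti-PD-L1, a log2 fold change of 0.01 (95% interval -0.76 to 0.78). The pore-forming protein perforin, Prf1, was at 12.4, 16.1, 6.79 and 12.9 CPM against 14.9, 19.6, 12 and 10.3 CPM (0.24, 95% interval -0.44 to 0.92). In both genes the treated tumors lay inside or near the span of the controls. Among T cell cytokine and activation genes, 5 of 12 were positive, with a median of -0.15. Ifng, interferon gamma, was at 9.36, 6.12, 2.23 and 6.96 CPM against 7.76, 6.32, 3.92 and 4.44 CPM (-0.13, 95% interval -1.11 to 0.86). Tnf, tumor necrosis factor, was at 20.4, 17.4, 9.28 and 13.3 CPM against 12.7, 9.93, 11.2 and 5.07 CPM, with the smallest p of that list (log2 fold change -0.63, SE 0.31).

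Regulatory T cell genes had a median of 0.31 over 7 genes, 5 of them positive. Their defining transcription factor Foxp3 was at 0.836, 2.31, 2.49 and 2.82 CPM in controls and 3.61, 3.91, 1.86 and 1.33 CPM with anti-PD-L1 (log2 fold change 0.31, SE 0.50). The IL-2 receptor alpha chain Il2ra was at 0.02 (SE 0.30). Natural killer cell genes had a median of -0.04 over 8 genes and inhibitory T cell receptors of 0.02 over 8. In the T cell, cytotoxic effector and natural killer cell lists Fc control replicate 3 and anti-PD-L1 replicate 4 were the low tumors of their groups. The T cell list stood at a mean of -0.89 and -1.09 log2 units from the median tumor in them, against -0.29 to 0.61 in the other 6. Summed T cell list levels ran from 90.5 to 178 CPM in controls and from 71.5 to 254 CPM with anti-PD-L1.

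**Figure D2:**
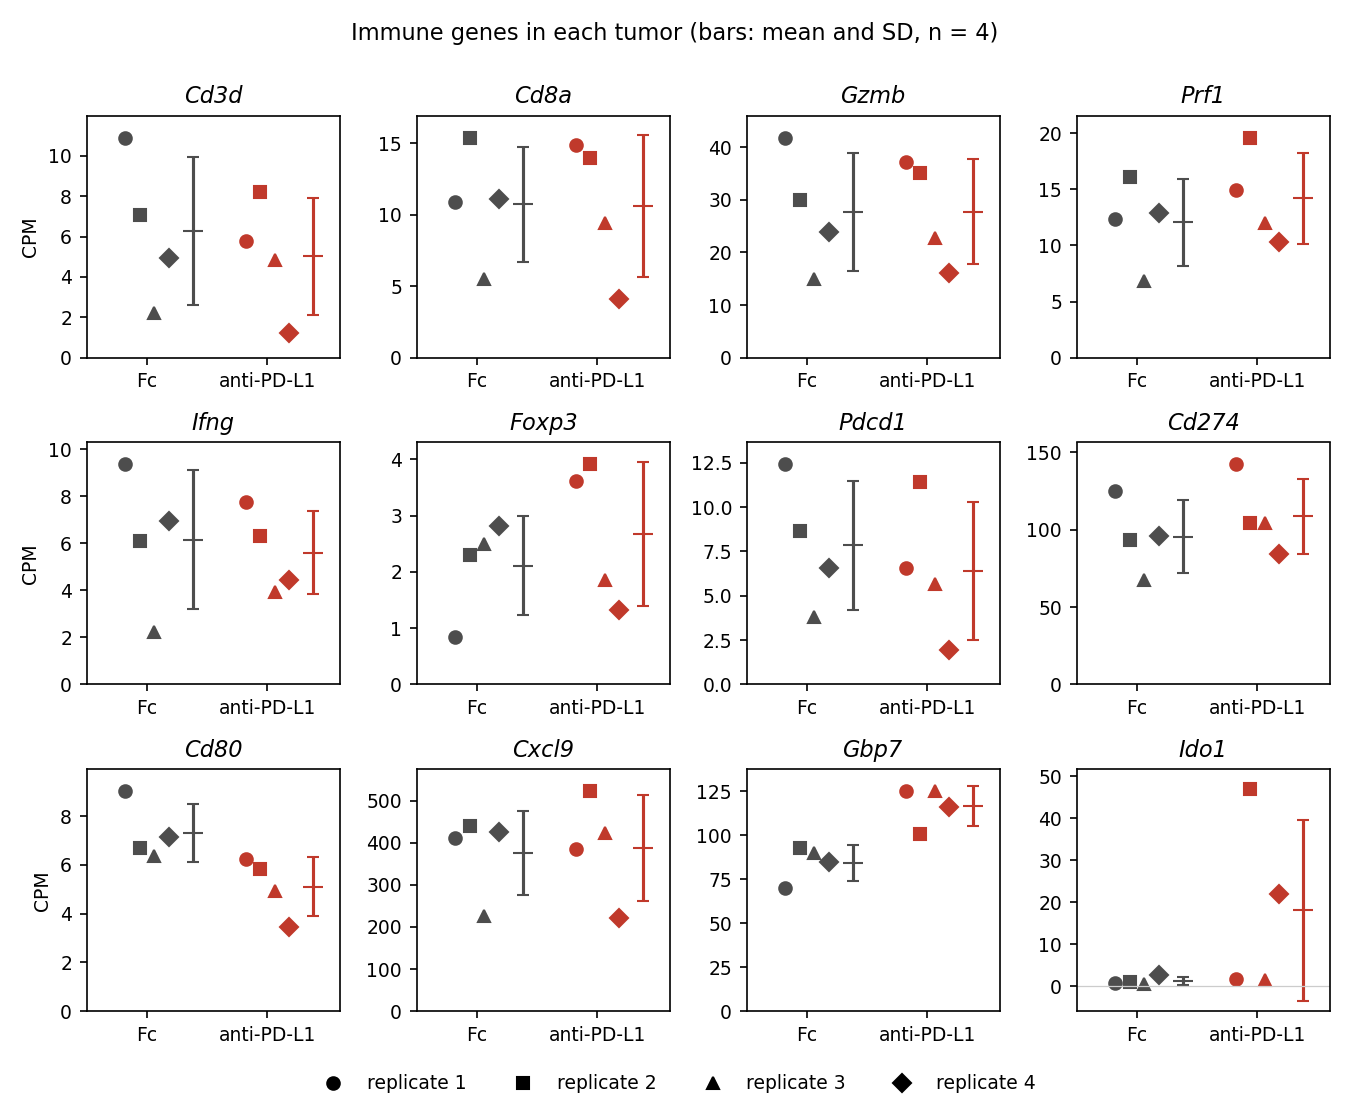
CPM (y axis, linear) of 12 immune genes in each Fc control tumor (grey) and each anti-PD-L1 tumor (red), with symbols for the replicate and bars for the mean and SD of 4 tumors. Cd3d, Cd8a, Gzmb, Prf1, Ifng, Foxp3, Pdcd1, Cd274 and Cxcl9 overlap between groups, Cd80 and Gbp7 do not, and Ido1 is high in anti-PD-L1 replicates 2 and 4 alone.

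With Fc control replicate 3 the lowest tumor, the interferon gamma response list overlapped between the groups in summed level. Its 23 tested genes had a median log2 fold change of 0.05, with 16 positive and 7 negative, and their summed level was 3278 to 5366 CPM in controls and 3785 to 5092 CPM with anti-PD-L1. Cxcl9, a chemokine that draws CXCR3-bearing T cells, was at 410, 439, 227 and 425 CPM against 385, 522, 424 and 221 CPM (log2 fold change 0.05, 95% interval -0.59 to 0.68). Its relative Cxcl10 was at -0.08 (SE 0.24) and Cxcl11 at -0.80 (SE 0.42), the latter with Fc control replicate 1 at 10.9 CPM and the other 7 tumors between 2.84 and 4.94 CPM. The type I interferon list had a median of 0.05 over 21 genes, and 12 were positive.

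Of the 23 tested interferon gamma response genes, 2 (Gbp7 and Jak1) had all anti-PD-L1 tumors above all controls, against 1.1% of all genes tested. Jak1, a kinase of the receptor, is named only because its groups did not overlap. Gbp7 encodes a guanylate-binding protein of cell-autonomous defence, and as a member of a family of close paralogs its count is uncertain where reads were shared. It was at 69.9, 92.7, 89.9 and 84.6 CPM in controls and at 125, 101, 125 and 116 CPM with anti-PD-L1, a log2 fold change of 0.47 (SE 0.25, adjusted p = 0.826). On the TPM scale the groups overlapped, with Fc control replicate 3 at 42.1 and anti-PD-L1 replicate 2 at 40.1 TPM. The 300 bases around the start of Gbp7 and of Cd274 are shown because Gbp7 is an interferon response gene with a CPM that did not overlap between the groups and Cd274, which encodes mouse PD-L1, overlapped. Both are from RefSeq on GRCm38.p6, from 250 bases before to 50 after the gene start, written 5′ to 3′ along the gene's plus strand, with matches in capitals to the gamma-activated sequence TTCNNNGAA (GAS) and, on either strand, to the interferon-stimulated response element (ISRE, GAAA and GAAA with 2 bases of any kind between them). The Gbp7 window is chr3:142530086-142530385 and the Cd274 window chr19:29367188-29367487.
Gbp7: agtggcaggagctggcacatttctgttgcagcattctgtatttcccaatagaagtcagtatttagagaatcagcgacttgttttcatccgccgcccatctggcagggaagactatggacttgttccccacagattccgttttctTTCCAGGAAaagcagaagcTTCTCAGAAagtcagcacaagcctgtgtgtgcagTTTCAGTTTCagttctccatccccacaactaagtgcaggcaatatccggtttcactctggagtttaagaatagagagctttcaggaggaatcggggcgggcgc
Cd274: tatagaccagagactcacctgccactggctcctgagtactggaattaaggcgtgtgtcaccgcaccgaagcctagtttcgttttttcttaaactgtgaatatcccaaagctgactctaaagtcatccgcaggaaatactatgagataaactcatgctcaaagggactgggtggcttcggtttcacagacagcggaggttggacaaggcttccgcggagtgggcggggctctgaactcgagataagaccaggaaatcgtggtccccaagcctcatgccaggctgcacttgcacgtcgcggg
The Gbp7 window held 2 GAS matches and 1 ISRE match, and the Cd274 window held 0 of either. Over 32851 promoter windows of this length, 8.30% held a GAS match and 3.44% an ISRE match. Of the 23 listed genes, 16 had a window; 7 of the 16 held a GAS match and 10 an ISRE match. A match is a string of letters, and no binding was measured. Whether a match goes with a difference between the groups was not tested.

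Ido1 (chromosome 8, 25694608 to 25707481, minus strand, NCBIM37) had the largest fold change among the interferon gamma response genes and did not follow the rest of that list. It encodes an enzyme that breaks down tryptophan, which interferon gamma induces in many cells. Its level was 0.836, 1.04, 0.602 and 2.62 CPM in controls and 1.86, 47.0, 1.58 and 21.9 CPM with anti-PD-L1 (log2 fold change 3.80, SE 1.08, adjusted p = 0.826). Treated replicates 1 and 3 lay within the control range, and replicates 2 and 4 were far above it. These were also the treated tumors with high adipocyte and epithelial genes, as described next, and Fc control replicate 4, the control with the highest such genes, had the highest control value. Without the tumors of high adipocyte genes the log2 fold change was 1.07. The part of those tissues in the level of Ido1 was not tested.

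The adipocyte list had the highest median fold change of the lists, and it was highest in 1 tumor. All 23 tested members were positive (median log2 fold change 2.78), 10 at an unadjusted edgeR p under 0.05 against 1.44% of all genes tested, and 0 had groups that did not overlap, against 1.1% of all genes above. Anti-PD-L1 replicate 2 was the highest tumor for all 23, with 2.33% of its counts in these genes, followed by 0.507% in anti-PD-L1 replicate 4 and 0.315% in Fc control replicate 4, against 0.0594% to 0.129% in the other 5. Scd1, a fatty acid desaturase (chromosome 19, 44468941 to 44482199, minus strand, NCBIM37) was at 217, 251, 361 and 728 CPM in controls and at 265, 8660, 248 and 1384 CPM with anti-PD-L1. Treated replicates 1 and 3 sat at the low end of the control range, so that the log2 fold change of 2.76 (SE 1.00) rested on the other pair. Fabp4, a fatty acid carrier of adipocytes, was at 36.1, 26.5, 28.5 and 235 CPM against 51.6, 2044, 18.4 and 303 CPM (2.89, SE 1.45). Adipoq, the adipocyte hormone adiponectin, was at 5.51, 1.27, 4.04 and 40 CPM against 2.84, 391, 1.12 and 73.9 CPM (3.19, SE 1.84). Both showed the same order, with anti-PD-L1 replicate 2 highest, anti-PD-L1 replicate 4 next and then Fc control replicate 4.

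Genes of lipid synthesis and storage followed the same tumors. Fasn, fatty acid synthase, was at 157, 528, 635 and 816 CPM in controls against 520, 3751, 661 and 1403 CPM with anti-PD-L1 (log2 fold change 1.57, SE 0.64). Cfd, the adipocyte-secreted complement factor D, spanned from 7.83 to 2175 CPM within the treated group alone, at 36.1, 11, 34.4 and 473 CPM in controls and 32.9, 2175, 7.83 and 684 CPM with anti-PD-L1. Pck1, the enzyme that commits carbon to glucose and glycerol synthesis, had the largest pooled within-group SD of the named genes, 4.15 on the log2 scale, with 0.186 to 752 CPM among treated tumors. Without anti-PD-L1 replicate 2 the adipocyte median was 0.69, without Fc control replicate 4 it was 4.74, and without all 4 tumors with high adipocyte genes (Fc control replicate 4, anti-PD-L1 replicates 2 and 4 and ALPN-202 replicate 4) it was -0.02.

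Genes of simple and mammary epithelium were high in the same tumors. The epithelium list had a median log2 fold change of 2.41 over 12 genes, 11 of them positive. The mammary list had 2.21 over 7 genes, all positive. In each list 2 genes were higher at an unadjusted edgeR p under 0.05, against 1.44% of all genes tested. Krt8, a keratin of simple epithelia, was at 0.334, 0.231, 0.688 and 12.1 CPM in controls and at 0, 174, 0.0932 and 30.8 CPM with anti-PD-L1. Treated replicates 1 and 3 were below every control, and the log2 fold change of 3.89 had a 95% interval from -0.63 to 8.41. Prlr, the prolactin receptor, was at 0.334, 0.347, 1.12 and 8.47 CPM against 0.656, 99.9, 0.373 and 33.0 CPM (3.66, SE 1.54). Csn3, which encodes the milk protein kappa-casein, was at 0.668, 0.347, 0.430 and 2.82 CPM against 0.219, 47.0, 0.559 and 8.35 CPM (3.68, SE 1.45). The sodium-iodide symporter Slc5a5, among the 10 higher genes with the smallest p of all, was at 1.34, 0.809, 1.46 and 2.22 CPM against 0.547, 61.9, 1.03 and 11.6 CPM (3.66, SE 1.18). Ltf, which encodes lactoferrin, made by neutrophils and by glandular epithelium, was at 0.167, 0.578, 0.0859 and 2.92 CPM against 0.328, 45, 0.0932 and 5.33 CPM. It stood in the neutrophil list, whose summed level was 103 to 143 CPM in controls and 89.2 to 184 CPM with anti-PD-L1. The milk genes Csn2 and Wap, which define the lactating gland, had 0 counts in all 8 tumors. Without anti-PD-L1 replicate 2, the epithelium median was 0.47 and the mammary median 0.42; without the 4 tumors they were -0.41 and 0.21.

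**Figure D3:**
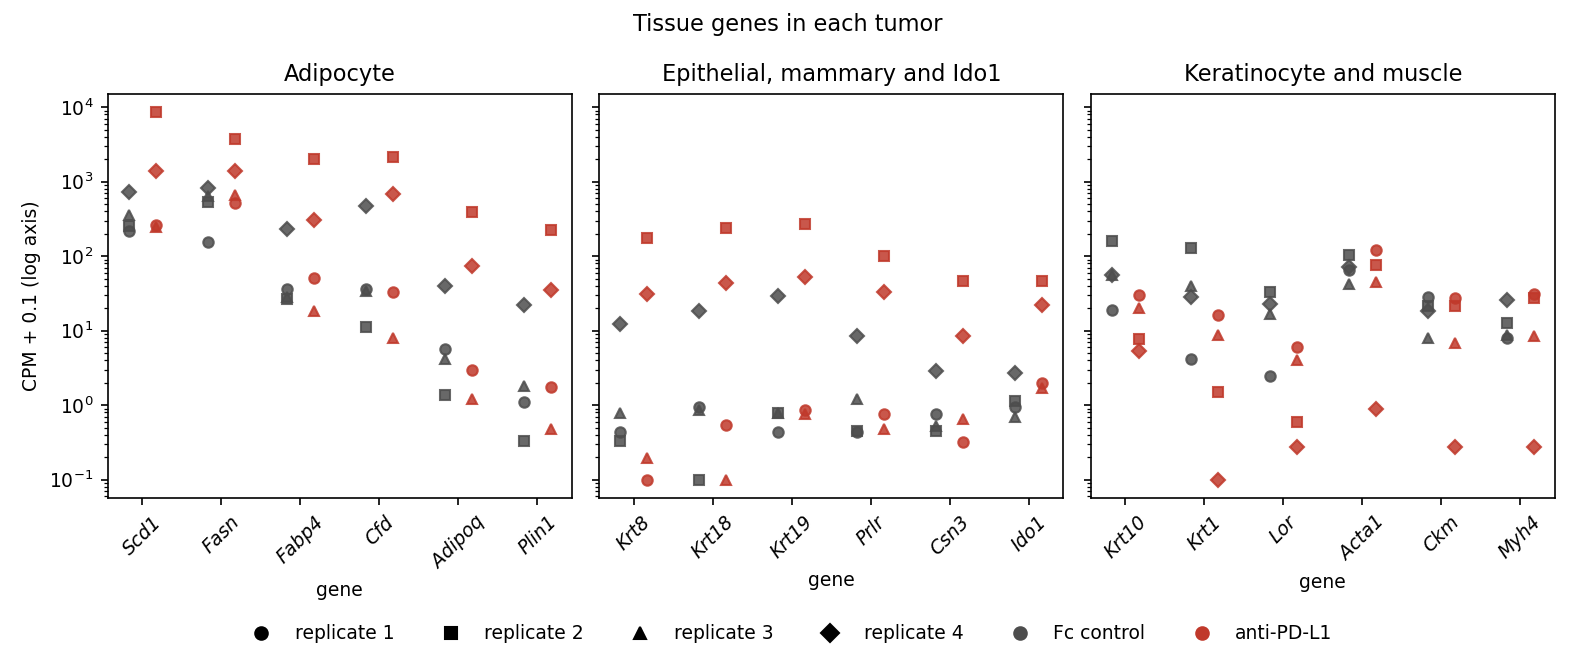
CPM plus 0.1 (y axis, log scale) of adipocyte genes, of epithelial and mammary genes with Ido1, and of keratinocyte and muscle genes, in each Fc control (grey) and anti-PD-L1 (red) tumor, with symbols for the replicate. Anti-PD-L1 replicate 2, anti-PD-L1 replicate 4 and Fc control replicate 4 lie above the other 5 tumors for the adipocyte and epithelial genes, and anti-PD-L1 replicate 4 is lowest for the muscle genes.

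Among all genes with large fold changes, the same tumors recurred. Of the 379 genes with a log2 fold change over 1, 366 (96.6%) had their highest level in anti-PD-L1 replicate 2, against 17.9% of all genes tested. Of the 136 with a log2 fold change over 2 it was 135, and in 127 of the 136 the 3 highest tumors were anti-PD-L1 replicates 2 and 4 and Fc control replicate 4, against 4.10% of all genes. A positive fold change of this size favours a treated tumor as the highest, and no control was highest for any of the 379. The shares of all genes also count genes highest in a control, so they are no like baseline. The groups of 4 of the 136 did not overlap (Ngfr, Htr2a, Lmod1 and Ptpn5), where 1.1% of all genes tested were above in this way. Among the 136 were 18 adipocyte, 8 epithelial and 4 mammary genes of the fixed lists. Pdk4, a kinase that slows pyruvate oxidation in fasted and fat-burning tissue, was at 0.836, 0.924, 0.688 and 2.72 CPM in controls and at 3.28, 90.5, 0.746 and 5.42 CPM with anti-PD-L1 (log2 fold change 4.24, SE 1.24). Without anti-PD-L1 replicate 2 it was 1.26.

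**Figure D4:**
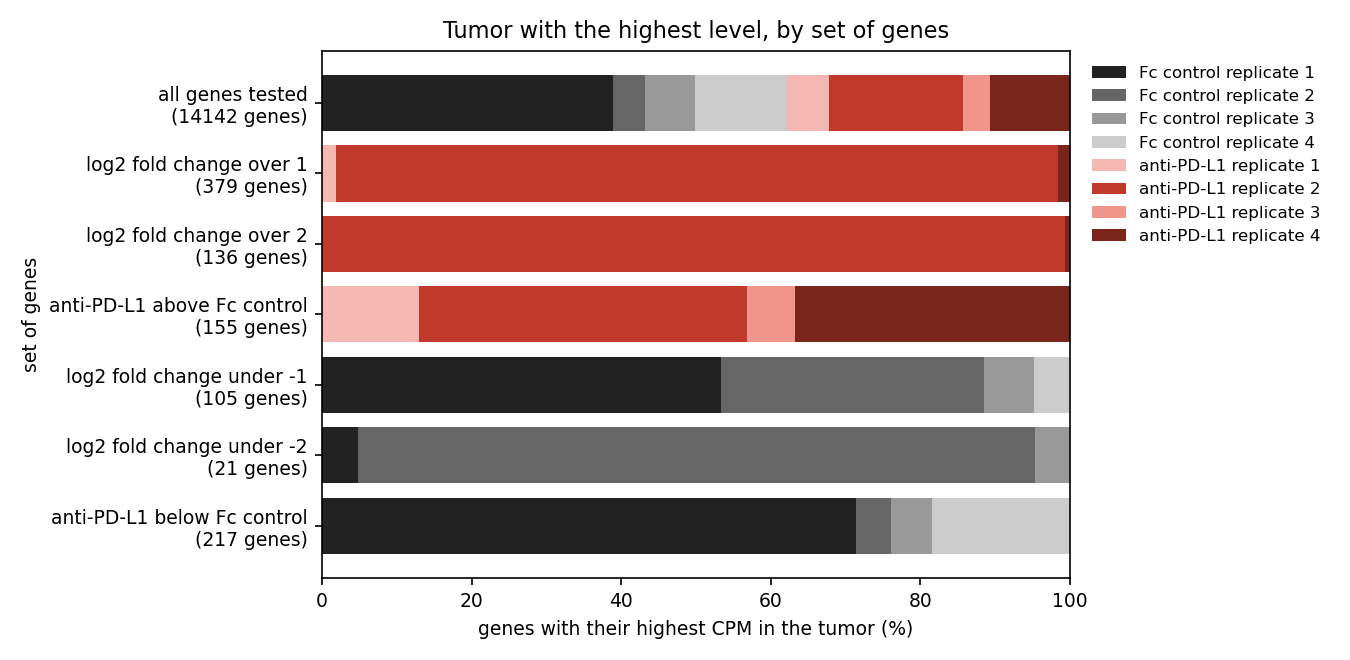
Share of genes (x axis, percent) whose highest CPM was in each tumor, for all genes tested and for sets by log2 fold change or by groups that did not overlap (y axis). Anti-PD-L1 replicate 2 holds 96.6% of genes over 1 and Fc control replicate 2 holds 90.5% of genes under -2, against 17.9% and 4.24% of all genes tested. Each of the other sets holds genes highest in 1 group only, while all genes tested include both, so these shares are not a like baseline.

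Keratinocyte genes leaned lower and were highest in other tumors. Of 15 tested keratinocyte and hair genes, 14 were negative (median -1.28), and 0 had an unadjusted edgeR p under 0.05. Krt10, a keratin of the upper epidermis, was at 19.1, 160, 55.3 and 56.6 CPM in controls and at 30.5, 7.72, 20.1 and 5.16 CPM with anti-PD-L1 (log2 fold change -2.20, SE 1.12). Lor, which encodes loricrin of the cornified envelope, was at 2.34, 33.3, 16.5 and 22.6 CPM against 5.90, 0.501, 3.92 and 0.178 CPM (-2.84, SE 1.42). Fc control replicate 2 was highest for both, while Fc control replicate 1 lay within the treated range. Of the 21 genes with a log2 fold change under -2, 4 were in the keratinocyte list (Krt10, Lor, Krt1 and Dsc3). Of these 21, 19 were highest in Fc control replicate 2, against 4.24% of all genes tested. In 12 of the 21, anti-PD-L1 replicate 4 was lowest, against 16.5% of all genes. The groups of 3 did not overlap (Calm4, Hrnr and Serpinb12), where 1.53% of all genes tested were below in this way. Of the 105 genes under -1, 56 were highest in Fc control replicate 1, against 38.9% of all genes. In 37 of the 105, Fc control replicate 2 was highest, against 4.24%. A fold change this far below 0 favours a control as the highest tumor and a treated tumor as the lowest. No treated tumor was highest for any of the 21 or the 105. The shares of all genes count genes at either end in either group, so they are no like baseline for an excess in 1 tumor. Serpinb12, a serpin of stratified epithelia, was at 1.34, 1.27, 0.688 and 0.504 CPM against 0.328, 0.201, 0.186 and 0.0889 CPM (-2.16, SE 0.63, adjusted p = 0.826). The summed keratinocyte level was 84.2 to 564 CPM in controls and 24.6 to 143 CPM with anti-PD-L1, and its median stayed between -1.49 and -0.82 when single tumors were left out. The part of skin in these differences was not tested.

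Skeletal muscle genes set 1 tumor apart. Acta1, skeletal muscle actin, was at 65.3, 105, 42.5 and 72.0 CPM in controls and at 121, 76.6, 45.3 and 0.80 CPM with anti-PD-L1 (log2 fold change -0.23, SE 1.07). The summed level of the muscle list was 150 to 373 CPM in controls and 474, 313, 150 and 8.35 CPM with anti-PD-L1. The list median was -0.20 with all tumors and 0.21 without anti-PD-L1 replicate 4.

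Nerve sheath and vessel genes were higher mainly in anti-PD-L1 replicate 2. Of 8 tested Schwann cell genes 7 were positive (median 0.71), 3 of them at an unadjusted edgeR p under 0.05, against 1.44% of all genes tested. Ngfr, the low-affinity neurotrophin receptor, had groups that did not overlap, at 0.334, 0.578, 0.516 and 0.706 CPM against 1.86, 6.72, 0.746 and 1.69 CPM (log2 fold change 2.31, SE 0.84). Erbb3, the neuregulin receptor of Schwann cells, was at 0.96 (SE 0.42). Without anti-PD-L1 replicate 2 the Schwann cell median was -0.07. Endothelial genes were positive in 15 of 16 (median 0.52, and 0.11 without that tumor). Tek, the angiopoietin receptor TIE2, was at 0.836, 3.47, 2.41 and 3.43 CPM against 3.5, 18.0, 2.61 and 4.09 CPM (1.45, SE 0.78), and Cdh5, the cadherin of endothelial junctions, at 9.19, 41.1, 37.0 and 42.6 CPM against 43.9, 106, 36.8 and 44.2 CPM (0.83, SE 0.52). The low control in both was replicate 1. Fibroblast and matrix genes were positive in 17 of 18 (median 0.34, with 0.07 without anti-PD-L1 replicate 2 and 0.15 without Fc control replicate 1).

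**Figure D5:**
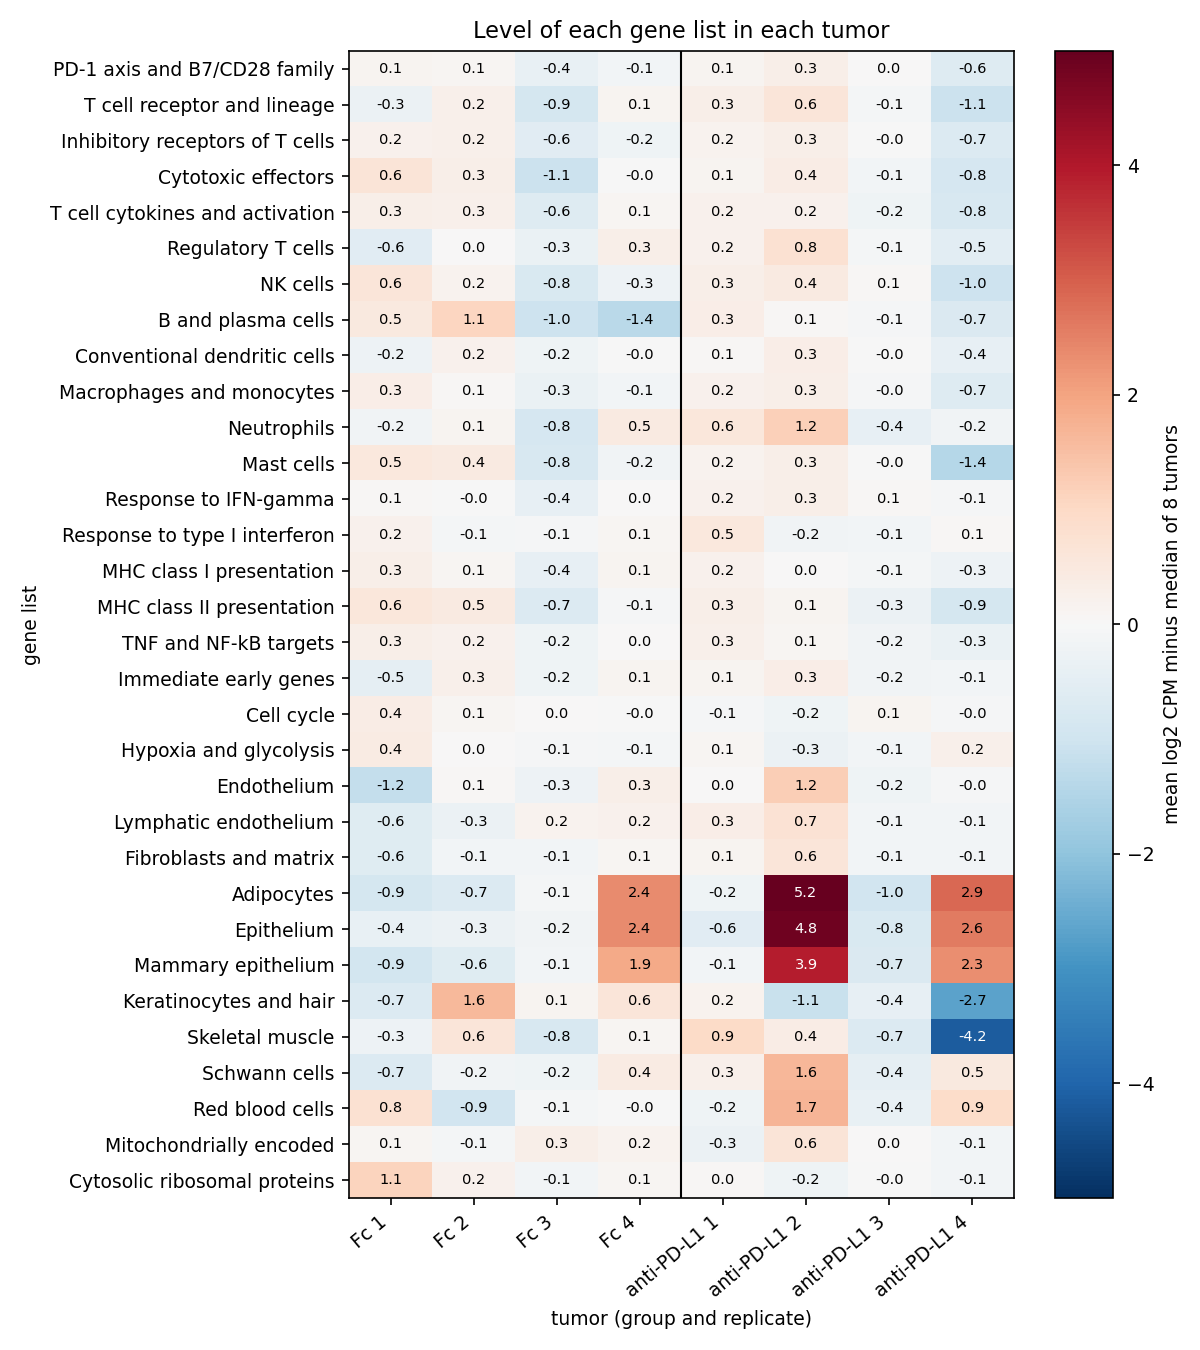
Mean over the tested members of each fixed gene list (y axis) of log2 CPM minus the member's median over 8 tumors, for each tumor (x axis; 4 Fc control left of the line, 4 anti-PD-L1 right). Adipocyte, epithelium and mammary lists stand out in anti-PD-L1 replicates 2 and 4 and Fc control replicate 4, skeletal muscle is at -4.15 in anti-PD-L1 replicate 4, and the T cell list is lowest in Fc control replicate 3 and anti-PD-L1 replicate 4.

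MHC class II genes leaned lower without passing the test, and the macrophage, MHC class I and dendritic cell medians lay nearer 0. Of 20 tested macrophage and monocyte genes 12 were negative (median -0.18, with 0.10 without Fc control replicate 1, 0.02 without anti-PD-L1 replicate 4 and -0.34 without Fc control replicate 3). Ccr2, the chemokine receptor of inflammatory monocytes, was at 94.4, 37.0, 56.6 and 38.5 CPM in controls and at 34.8, 34.6, 46.1 and 32.6 CPM with anti-PD-L1 (log2 fold change -0.61, SE 0.28), and its ligands Ccl2 and Ccl7 were at -0.83 (SE 0.47) and -1.08 (SE 0.67). Ccl2 was at 1017, 349, 284 and 244 CPM against 302, 252, 315 and 196 CPM, with Fc control replicate 1 far above the rest. Cd163, a scavenger receptor of tissue macrophages, was at 1.00, 0.809, 5.59 and 4.03 CPM against 5.36, 15.8, 3.64 and 2.4 CPM (1.21, SE 0.73). All 10 MHC class II genes were negative, with a median of -0.29 and 0 at an unadjusted edgeR p under 0.05. Their median was -0.51 without Fc control replicate 3 and -0.11 without anti-PD-L1 replicate 4. H2-Aa, the alpha chain of I-A, was at 1076, 1060, 338 and 651 CPM against 771, 745, 557 and 304 CPM (-0.39, SE 0.36), so the controls alone spanned more than the groups differed. MHC class I genes had a median of -0.04 over 15, and conventional dendritic cell genes 0.04 over 12.

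Cell cycle and ribosomal protein genes leaned lower, by less without Fc control replicate 1. Cell cycle genes were negative in 19 of 24 (median -0.23, and -0.06 without that library), with Ccnb1, cyclin B1, at 67.9, 35.0, 31.9 and 26.0 CPM in controls and 24.7, 23.1, 29.8 and 25.2 CPM with anti-PD-L1 (log2 fold change -0.64, SE 0.37). Cdc20, named only because its groups did not overlap, was the 1 of 24 cell cycle genes below in all treated tumors. Of all genes tested, 1.53% were below in this way. Of 17 tested hypoxia and glycolysis genes 6 were positive and 11 negative (median -0.07), and 0 had an unadjusted edgeR p under 0.05. Bnip3, a hypoxia-induced mitophagy receptor, was at 341, 75.9, 70.0 and 50.2 CPM against 59.3, 46.1, 56.4 and 76.9 CPM (-1.17, SE 0.84), where 1 control held the whole difference. All 26 tested ribosomal protein genes were negative, with a median of -0.52 that became -0.14 without Fc control replicate 1. Hk2, hexokinase 2, had groups that did not overlap in the other direction, at 45.3, 115, 132 and 131 CPM against 152, 132, 136 and 166 CPM (0.47, SE 0.35). The lowest treated tumor and the highest control were nearly level, and the groups overlapped on the TPM scale.

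The genes whose groups did not overlap, whose functions were not surveyed as a set, were 155 above (1.1%) and 217 below (1.53%). None of them passed the test, and how many genes would separate by chance was not tested. In genes with all treated tumors above, the median longest transcript was 4368 bases, and in those with all treated tumors below it was 2133 bases, against 3007 over all genes tested. Fc control replicate 1 was the lowest tumor in 118 of the 155, against 34.2% of all genes tested. It was the highest in 155 of the 217, against 38.9% of all genes. By definition the tumor at that end of these sets is a control. Without Fc control replicate 1 the counts were 248 (1.75%) and 370 (2.62%). Leaving out any 1 tumor raised them, to between 232 and 808 above and between 322 and 1073 below, since fewer tumors have to be apart. Ptgs2, the prostaglandin synthase COX-2, was at 190, 191, 169 and 134 CPM in controls and at 254, 195, 200 and 260 CPM with anti-PD-L1 (log2 fold change 0.41, SE 0.22). Lrrc16a, a regulator of actin capping, was at 25.2, 36.2, 35.8 and 29.4 CPM against 43.4, 44.9, 44.8 and 45.6 CPM (0.50, SE 0.26), with the treated tumors close together. Atp7a, a copper pump, was at 7.19, 15.5, 16.2 and 9.48 CPM against 17.7, 23.1, 20.3 and 22.8 CPM (0.79, SE 0.39). Of these, Lrrc16a stayed apart on the TPM scale, and Ptgs2 and Atp7a overlapped.

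Below in all treated tumors were Hes1, a transcriptional target of Notch, at 30.7, 26.2, 24.9 and 26.8 CPM against 18.5, 20.7, 17.4 and 20.4 CPM (log2 fold change -0.50, SE 0.19), and Marcks, an actin-linked substrate of protein kinase C, at 161, 115, 112 and 108 CPM against 94.2, 93.6, 84.0 and 77.1 CPM (-0.50, SE 0.19). Dpysl2, a tubulin-binding protein of growing axons, was at 37.9, 45.6, 41.6 and 50.8 CPM against 33.8, 30.5, 32.5 and 31.3 CPM (-0.46, SE 0.17). On the TPM scale Marcks stayed apart, while Hes1 overlapped (Fc control replicate 1 at 31.3 and anti-PD-L1 replicate 4 at 35.2 TPM) and Dpysl2 had Fc control replicate 1, at 12.5 TPM, below all treated tumors. Hmgb1, a chromatin protein, was at 20.4, 18.6, 18.1 and 18.9 CPM against 14.9, 13.4, 13.3 and 13.9 CPM (-0.45, SE 0.14), and Set, a histone chaperone, at -0.53 (SE 0.18). Hmgb1, Set, the histone gene H2afz (-1.41, SE 0.46) and ribosomal protein genes have near-identical processed copies elsewhere in the genome, so their counts are uncertain. Hmgb1, Set and Ppp1r14b also overlapped between the groups on the TPM scale. Ier2, an immediate early gene, was at 71.9, 61.2, 49.8 and 67.7 CPM against 45.8, 49.9, 44.2 and 38 CPM (-0.49, SE 0.16), with 1 treated tumor just above the lowest control. Ppp1r14b, an inhibitor of protein phosphatase 1, was at 104, 89.8, 87.7 and 116 CPM against 78.6, 67.3, 79.7 and 63.6 CPM (-0.46, SE 0.14).

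The smallest p values on the higher side belonged to genes of low level. Htr2a, the serotonin receptor 2A, was at 0.167, 0.231, 0.172 and 0.101 CPM in controls and at 0.765, 1.4, 0.559 and 0.622 CPM with anti-PD-L1 (log2 fold change 2.24, SE 0.56, adjusted p = 0.826). Its groups did not overlap, at a level of a few reads per control tumor. The filter that admitted Htr2a also counted the ALPN-202 tumors. Ebf2, a transcription factor of adipocyte precursors, was at 0.501, 0.462, 0.344 and 0.706 CPM against 1.09, 3.81, 0.932 and 1.78 CPM (1.90, SE 0.48), and here too anti-PD-L1 replicates 2 and 4 were the highest. Carf, a calcium-responsive transcription factor, was at 2.01, 1.73, 2.06 and 1.41 CPM against 3.17, 2.81, 4.10 and 4.00 CPM (0.96, SE 0.27), and Zfp78, a zinc finger gene, at 1.31 (SE 0.40). In Carf the highest treated tumors were replicates 3 and 4, so its order was not that of the adipocyte genes.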

How the data were processed

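RNA of 12 whole tumors was made into full-length cDNA (SMART-Seq v4, NexteraXT, not strand-marked) and sequenced as single reads. After trimming and alignment of the reads to mouse, the authors counted reads per gene with htseq-count and deposited these raw counts. STAR is the aligner of the Methods, whereas TopHat 1.4.1 stands in the submitters' processing notes, beside HTSeq 0.4.1 and NCBIM37, and which was used is not known. The TPM values, also deposited by the authors, were made from these counts and gene lengths and sum to 999019 to 999706 per tumor.

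Of 33018 lines, 14142 passed edgeR's filterByExpr over all 12 tumors (minimum count 10, minimum total 15). In the 8 tumors alone 13776 passed. Counts were TMM-normalized and tested with edgeR 4.0.16 (quasi-likelihood, two-sided, all 12 tumors in 1 fit, residual degrees of freedom 9, R 4.3.3) with Benjamini-Hochberg adjustment over all genes and a threshold of 0.05. Lists were described by counts and medians. Alternatives used DESeq2 1.42.0, limma 3.58.1 (voom, and log2 TPM with a pseudocount), other scalings and filters, and left-out tumors. Replicates were taken as tumors of separate mice, as the study describes its individual tumors. Replicate numbers were not taken as pairs (correlations of same-numbered tumors 0.16, -0.03, 0.05 and 0.14).

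Named genes were drawn from the 10 higher and the 10 lower genes of smallest p, the PD-1 and B7 list with 12 T cell and interferon genes, up to 4 of smallest p and, for tissue lists, 6 of highest level per list, the 15 of largest within-group SD, and the 10 of largest gap in each direction among genes whose groups did not overlap. Predicted genes, clones, and names turned into dates or repeated were not named. Members and lists were chosen with earlier results of these data known.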

Additional observations from a re-analysis of the deposited data

Results flagged for a closer look

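In 9 of 200 groups of 4 tumors checked (list levels, total counts and named genes), 1 tumor lay far from the other 3; chance gives about 1 in 20. Fc control replicate 4 was high for the epithelium list (a mean of 2.37 log2 units from the median tumor) and for Fabp4 (7.88 log2 CPM). Fc control replicate 3 was low for the interferon gamma response list (-0.41) and for Cxcl9 (7.83 log2 CPM). Fc control replicate 1 was low for Il2ra (2.68 log2 CPM), Cdh5 (3.23) and Hk2 (5.51) and high for Marcks (7.33), and this was the library with the transcript length trend. Anti-PD-L1 replicate 2 was high for Cdh5 (6.74 log2 CPM).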

How the results depend on the processing

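No setting called a gene at an adjusted p of 0.05 or 0.1, and the smallest adjusted p ran from 0.433 (DESeq2) to 1.0; with 4 tumors per group the median 95% interval reached 0.64 log2 units to each side. Counts at an unadjusted p under 0.05 (203 higher and 89 lower) and the medians and log2 fold changes below moved as follows; the cause was not tested. Lists and genes not given kept their direction, or for lists moved by less than 1 SD between tumors. DESeq2 gave 417 higher and 134 lower, limma-voom with sample weights 369 and 502, no filter 455 and 168, the strict filter (10 counts in every tumor) 98 higher, the 8 tumors alone 192 lower. Limma on TPM gave 162 lower with a pseudocount of 0.1, 159 with 1, and 66 higher with TPM of at least 1 in 4 tumors; these TPM fits moved the median of all genes to 0.14, 0.07 and 0.13. With the replicate number as a block the counts were 60 and 48, Icos was at -0.09 and Il2ra at -0.02; since the numbers link no tumors (1 of 12 libraries correlated best with its own number), this is no sign of a weaker effect.

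Under limma on TPM the interferon gamma list was at 0.27, the cell cycle list at -0.04, Ctla4 at 0.03, Cd8a at 0.09, Cxcl10 at 0.13 and Ifng at 0.14 or, with a pseudocount of 0.1, 0.16. Genes below in all treated tumors numbered 140 on TPM. With sample weights the epithelium list was at 0.13, the mammary list at 0.34, Icos at -0.22, Ifng at 0.02, Il2ra at -0.11, Foxp3 at -0.03, Cxcl9 at -0.09, Cxcl10 at 0.19 and Krt8 at -0.33. Under the strict filter the lymphatic list was at -0.27 and the mammary list at 0.33, with fewer members. Cd8a, at -0.01, was at 0.01 with no filter, the strict filter and upper-quartile scaling, 0.02 with DESeq2 and RLE, 0.03 in the 8 tumors alone and 0.04 with library size only, under which Cxcl10 was at 0.01.

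The next settings were chosen after seeing the data. Without Fc control replicate 1 and ALPN-202 replicate 4, the libraries with a transcript length trend, 309 genes were higher and 283 lower; the cell cycle list was at -0.04, Pdcd1 at 0.04, Cd86 at 0.12, Ctla4 at 0.22, Cd3d at 0.11, Cd8a at 0.02, Ifng at 0.16, Il2ra at -0.05 and Cxcl10 at 0.17. Without the 4 tumors with high adipocyte genes, which leaves 3 controls and 2 treated tumors, 60 genes were higher; the adipocyte list was at -0.02, epithelium at -0.41, mammary at 0.21, red blood cells at -0.30, Cd8a at 0.21, Ifng at 0.02, Cxcl10 at 0.12, Scd1 at -0.11, Cfd at -0.42, Adipoq at -0.86, Pck1 at -1.83, Slc5a5 at -0.59 and Acta1 at 0.23. Without all 5 of these libraries 109 were higher; the interferon gamma list was at 0.40, type I interferon at 0.34, cell cycle at 0.01, adipocytes at -0.10, epithelium at -0.63, mammary at -0.02, ribosomal proteins at -0.04, Pdcd1 at 0.02, Cd86 at 0.23, Ctla4 at 0.27, Cd3d at 0.25, Cd8a at 0.26, Ifng at 0.52, Il2ra at -0.05, Cxcl10 at 0.50, Scd1 at -0.26, Cfd at -0.20, Adipoq at -0.49, Pck1 at -2.09, Slc5a5 at -0.53 and Acta1 at 0.19.

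When single tumors were left out, the unadjusted counts ran from 48 (without anti-PD-L1 replicate 2) to 401 (without anti-PD-L1 replicate 3) higher and from 54 (without anti-PD-L1 replicate 4) to 223 (without Fc control replicate 3) lower; the higher count was also 79 without Fc control replicate 1, 86 without Fc control replicate 2 and 314 without anti-PD-L1 replicate 1. Genes whose groups did not overlap ran from 232 to 808 above and 322 to 1073 below, more than with all tumors because fewer tumors have to be apart, and most without Fc control replicate 3. The cell cycle median ran from -0.31 to -0.06, mammary from 0.42 to 3.90 and Schwann cells from -0.07 to 0.93. Genes whose sign turned ran from -0.72 to 0.02 (Pdcd1), -0.20 to 0.47 (Pdcd1lg2), -0.52 to 0.10 (Cd86), -0.31 to 0.20 (Ctla4), -0.14 to 0.39 (Icos), -0.65 to 0.09 (Cd3d), -0.24 to 0.26 (Cd8a), -0.20 to 0.27 (Gzmb), -0.41 to 0.14 (Ifng), -0.09 to 0.13 (Il2ra), -0.13 to 0.24 (Cxcl9), -0.23 to 0.16 (Cxcl10) and -0.80 to 0.19 (Acta1).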
